A study of Mus musculus with 24 samples.

Results

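Barcoded cells of renal M1 macrophages were compared with barcoded monocytes and neutrophils of the same animals, the circulating myeloid cells. All samples labelled renal M1, monocytes or neutrophils were taken, 3 of each population from mice 1, 2 and 3, which gave 9 of the 24 samples of the series. Hematopoietic stem cells from the bone marrow of C57BL/6 mice were cultured, infected 5 days after plating with a barcoding lentivirus, and sorted as GFP+ Lin- Sca1+ cKit+ cells 4 days after infection. They were injected with unbarcoded CD45.2+ rescue cells (Lin- cKit+ Sca1-) into male CD45.2 recipients aged 5 weeks that had received 9 Gy to the whole body. After 2 months, genomic DNA of sorted populations was amplified over the barcode with 18 cycles, and index sequences were added with 9 to 11 more. The 3 groups shared strain (C57BL/6J), transplantation and harvest, and differed in the sorted population: renal M1 macrophages from kidney, monocytes and neutrophils from blood.

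Progeny of an infected stem cell inherit its barcode, so the share of a barcode among the reads of a population follows the contribution of that clone to the amplified DNA. Monocytes and neutrophils arise from common myeloid progenitors in the bone marrow, and kidney macrophages are partly replaced by cells that enter from the blood as monocytes. M1 is the name given to macrophages of the pro-inflammatory class, and M2 to those of the alternatively activated class. Host cells that survived irradiation and the progeny of rescue cells carried no barcode and were not seen. The markers of the M1 sort and the number of cells sorted are not given in the sources used here. The libraries hold barcode DNA and no gene expression, so the population labels could not be set against marker genes. A read share counts amplified copies and not cells, and fewer cells of a clone cannot be told apart from fewer copies recovered from them.

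The barcodes are synthetic sequences of 52 bases with no genome position, in which G or C mostly alternates with A or T. Bases off that alternation are written in capitals, and none of the 13 sequences shown has one. The first set holds the barcode with the highest renal M1 share in each mouse, because the agreement between populations is read on such clones. Lead-A belongs to mouse 1, Lead-F to mouse 2 and Lead-K to mouse 3.
Lead-A: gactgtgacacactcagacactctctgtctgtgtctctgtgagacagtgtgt
Lead-F: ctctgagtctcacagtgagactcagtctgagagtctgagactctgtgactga
Lead-K: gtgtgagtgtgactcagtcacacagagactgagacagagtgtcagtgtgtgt
The second set holds barcodes whose renal M1 share lay more than 2-fold outside both blood shares, because these are the clones in which the kidney population departed. High-A was the one such barcode above both, in mouse 1.
High-A: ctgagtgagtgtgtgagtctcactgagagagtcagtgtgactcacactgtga
Low-A to Low-I lay below both, 3 in each mouse, in the order of mice 1, 2 and 3.
Low-A: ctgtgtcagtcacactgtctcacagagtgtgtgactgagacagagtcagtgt
Low-B: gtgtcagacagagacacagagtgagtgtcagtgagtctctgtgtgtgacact
Low-C: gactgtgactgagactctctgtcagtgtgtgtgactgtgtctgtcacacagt
Low-D: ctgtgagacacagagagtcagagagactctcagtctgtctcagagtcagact
Low-E: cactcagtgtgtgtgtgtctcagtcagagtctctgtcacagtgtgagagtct
Low-F: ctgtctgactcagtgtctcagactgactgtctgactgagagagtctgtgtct
Low-G: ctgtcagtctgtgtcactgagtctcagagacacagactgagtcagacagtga
Low-H: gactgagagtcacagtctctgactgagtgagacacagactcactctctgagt
Low-I: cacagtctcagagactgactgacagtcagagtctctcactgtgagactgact
Among the 26 barcodes that were given a name, the nearest other barcode at 0.1% of reads or more differed at 10 to 18 positions (median 16), so none was a single-base copy of a larger clone.

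The 9 libraries held 6808221 to 12892062 reads and 10660 to 16155 distinct sequences, of which those in full alternation took 84.8% to 94.1% of reads. At these depths 0.01% of reads corresponded to 681 to 1289 reads, an unseen barcode (0 reads) could have a share of at most 2.33e-05% to 4.41e-05%, and the leading barcode of a library had a 95% Wilson interval 0.0341 to 0.0470 percentage points wide. Intervals and floors cover counting error only, because reads amplified without molecular identifiers are not independent molecules. One library stood apart: in monocytes of mouse 1, 19 of 70 barcodes (27.1%) were more than 2-fold above both renal M1 and neutrophils, against 1 of 55 (1.82%) in mouse 2 and 2 of 47 (4.26%) in mouse 3. Results that rest on that library are given with and without mouse 1.

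The first question was whether fewer clones made up the renal M1 population than the blood myeloid cells. The effective number of barcodes, the number of equally abundant barcodes that would give the same Shannon entropy, was 33.3, 24.8 and 19.1 in renal M1 of mice 1 to 3. It was 42.4, 30.9 and 23.0 in monocytes, and 31.3, 27.9 and 22.4 in neutrophils. Renal M1 was therefore the lowest of the 3 populations in mice 2 and 3 and lay between neutrophils and monocytes in mouse 1. Relative to the geometric mean of both blood populations the ratio was 0.913, 0.847 and 0.844 in mice 1 to 3. Its geometric mean over mice was 0.867, and it was below 1 in 3 of 3 mice. The ranges of renal M1 and blood samples overlapped widely, and the difference did not pass an exact permutation test over the 9 samples (two-sided p = 0.440, adjusted p = 0.595 over 10 tests). Permuted within mice, the exact p was 0.148 (adjusted p = 0.265, and 0.265 to 0.833 over the alternatives), where 0.0370 was the smallest value the design allowed.

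The 10 most abundant barcodes took 68.0%, 68.7% and 80.9% of renal M1 reads in mice 1 to 3. They took 62.3%, 65.7% and 75.4% in monocytes and 68.8%, 68.3% and 75.0% in neutrophils. The share in renal M1 was 3.29 percentage points above the blood mean on average, with differences of 2.41, 1.72 and 5.73 points in the 3 mice. This did not pass an exact permutation over the 9 samples (p = 0.476, adjusted p = 0.595). Nor did it pass the exact permutation within mice (p = 0.185, adjusted p = 0.265). Barcodes at 0.01% of reads or more numbered 226, 94 and 120 in renal M1, 229, 148 and 134 in monocytes, and 156, 121 and 108 in neutrophils. The ratio of renal M1 to the geometric mean of both blood counts was 1.20, 0.702 and 0.998, so the count of detected clones had no common direction across mice.

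**Figure D1:**
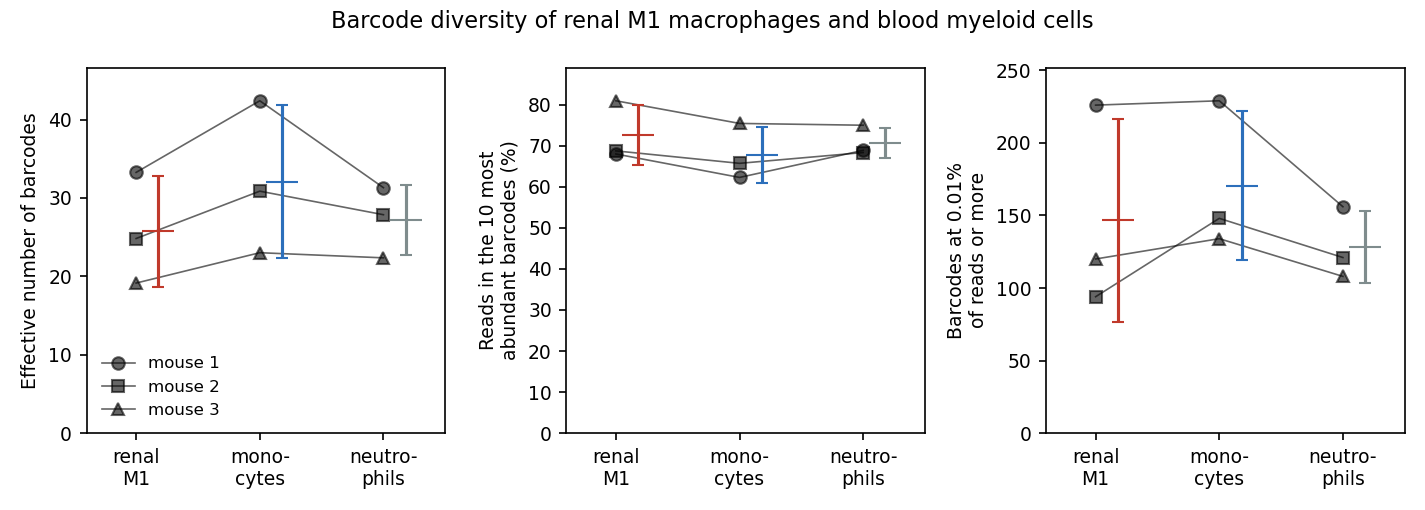
Effective number of barcodes (left), share of reads in the 10 most abundant barcodes in percent (middle) and number of barcodes at 0.01% of reads or more (right) in renal M1, monocytes and neutrophils. Symbols are mice, grey lines join samples of a mouse, and bars are the mean ± SD (n = 3); the effective number of renal M1 is lowest in mice 2 and 3, while the number of detected barcodes is near that of monocytes in mouse 1 and below both blood populations in mouse 2.

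The second question was whether renal M1 stood apart from the blood populations, and closer to one of them. The overlap of 2 populations adds up, barcode by barcode, the lower of both shares, so 1 means identical repertoires. Renal M1 overlapped with monocytes by 0.856, 0.918 and 0.912 in mice 1 to 3 and with neutrophils by 0.888, 0.905 and 0.871. Monocytes and neutrophils overlapped with each other by 0.888, 0.928 and 0.904. The overlap of the blood pair exceeded the mean overlap of renal M1 with them by 0.0157, 0.0165 and 0.0130, a mean of 0.0151 ± 0.00181 (SD, n = 3). That difference had the same sign in 3 of 3 mice and did not pass the exact permutation of the 3 populations within each mouse (two-sided p = 0.259, adjusted p = 0.432). Renal M1 was nearer to neutrophils in mouse 1 and nearer to monocytes in mice 2 and 3. The overlap with monocytes minus that with neutrophils was -0.0315, 0.0124 and 0.0405, a mean of 0.00713 ± 0.0363 (SD, n = 3), smaller than its spread between mice. Exact sign flips gave p = 0.75, and 0.25 was the smallest value they could give.

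Presence alone set renal M1 further apart than read shares did. The Jaccard index, the number of barcodes at 0.01% or more in both populations over the number in either, averaged 0.409 ± 0.117 for renal M1 with monocytes and 0.426 ± 0.0949 for renal M1 with neutrophils, against 0.546 ± 0.0401 for the blood pair (SD, n = 3 each). The blood pair exceeded renal M1 by 0.129 on this measure, with the exact within-mouse p at its smallest value of 0.0370 and an adjusted p of 0.123, which did not pass (0.123 to 0.833 over the alternatives of this result). With the Morisita-Horn index, which weights large clones more, the excess was 0.00429 (exact within-mouse p = 0.481, adjusted p = 0.602). With B cells the Jaccard index averaged 0.220 for renal M1, 0.353 for monocytes and 0.287 for neutrophils, and with T cells 0.310, 0.424 and 0.474 in the same order. Renal M1 was below both blood populations for either lymphoid population, and both differences from their mean (-0.0997 with B cells and -0.139 with T cells) had an exact within-mouse p of 0.0370 and an adjusted p of 0.123 (0.123 to 0.833 over the alternatives). With the tissue macrophages renal M1 lay between the blood means in the Jaccard index. It averaged 0.111 with renal M2, against 0.134 for monocytes and 0.102 for neutrophils, and the difference from blood was -0.00705, and -0.00969 and -0.00610 with Ccr2hi and Ccr2lo cardiac macrophages (exact within-mouse p = 0.593 to 0.667, adjusted p = 0.741 each).

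Renal M1 also overlapped less with each of the 5 remaining populations than the mean of monocytes and neutrophils did, in 3 of 3 mice for each. With renal M2 the overlap of renal M1 was 0.284, 0.344 and 0.232, against 0.329, 0.373 and 0.257 for monocytes and 0.282, 0.354 and 0.249 for neutrophils. In mouse 1 the value of renal M1 thus lay between those of the blood populations, and in mice 2 and 3 below both. The same held with Ccr2hi (0.221 against 0.219 in neutrophils of mouse 1), Ccr2lo (0.183 against 0.178) and B cells (0.349 against 0.344). With T cells renal M1 was below both in each mouse. By the means, renal M1 was nearer to neutrophils than to monocytes for each of the 5, as with B cells (0.342, against 0.350 and 0.381). The mean difference from blood was -0.0209 ± 0.00106 with renal M2, -0.0226 ± 0.00245 with Ccr2hi and -0.0203 ± 0.00200 with Ccr2lo cardiac macrophages (SD, n = 3 each). It was -0.0233 ± 0.00492 with B cells and -0.0222 ± 0.00695 with T cells (SD, n = 3 each). The exact within-mouse p-values were 0.0741 to 0.185 and each adjusted p was 0.370, so none of the 5 differences passed.

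The largest clones were shared closely. The 5 leading barcodes of renal M1 included 4, 5 and 5 of the 5 leading barcodes of monocytes in mice 1 to 3, and the same numbers of those of neutrophils. They summed to 42.0%, 50.2% and 65.1% of renal M1 reads, 40.2%, 45.8% and 58.8% of monocyte reads, and 44.5%, 47.5% and 57.7% of neutrophil reads. Lead-A had 10.5% in renal M1 of mouse 1, against 9.57% in monocytes and 10.7% in neutrophils. Lead-F had 14.0% in renal M1 of mouse 2, against 11.6% in monocytes and 12.6% in neutrophils. Lead-K was the barcode with the widest positive departure of the 15 leading ones. It had 20.6% in renal M1 of mouse 3, against 18.0% in monocytes and 14.7% in neutrophils. Over the 15, the log2 ratio of renal M1 to blood myeloid was -0.27 to 0.33 (median 0.09) and that of monocytes to neutrophils -0.24 to 0.30, so both comparisons had a similar width among leading clones. These clones were chosen by their renal M1 share, and the ratios are a description with no test.

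The other leading barcodes differed more in the cells outside the myeloid blood than among the 3 populations. Lead-L had 14.3% in renal M1 of mouse 3, against 13.8% in monocytes and 15.6% in neutrophils, and 0.418% in B cells and 0.0845% in T cells of that mouse. Lead-H had 10.4% in renal M1 of mouse 2, against 10.0% in monocytes and 10.4% in neutrophils, and 5.60% in B cells and 9.51% in T cells. Lymphocyte shares thus varied widely between leading clones whose renal M1 and blood myeloid shares were close.

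Smaller clones departed, and mostly in 1 direction. Barcodes at 0.1% or more in at least 1 of the 3 populations were compared with 0.01% added to each share, which damps ratios near the limit of presence. Above both blood populations by more than 4-fold, renal M1 had 1 of 172 barcodes (0.581%), High-A, which was 1 of 70 in mouse 1 (1.43%). Below both by more than 4-fold it also had 1 of 172 (0.581%), Low-D, which was 1 of 55 in mouse 2 (1.82%). By that rule, monocytes were above both others for 5 of 70 barcodes in mouse 1 (7.14%), and neutrophils below both for 1 of 70 (1.43%). At a fold of 2, chosen after the values were seen, renal M1 lay below both blood populations for 16 of 70 barcodes in mouse 1 (22.9%), 11 of 55 in mouse 2 (20%) and 9 of 47 in mouse 3 (19.1%). It lay above both for 1 of 172 over the 3 mice (0.581%). By the same rule, monocytes lay below the other populations for 0 of 172 and above for 22 (12.8%), of which 19 were in mouse 1. Neutrophils lay below for 3 of 172 (1.74%), each in mouse 1, and above for 0. The 36 barcodes below both (20.9%) thus came in similar proportion from each mouse, and without mouse 1 they were 20. These counts have 1 sample per population and mouse and carry no test.

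For a pair of populations, barcodes at 0.1% or more in either member of the pair were counted, so the numbers compared differ from the 172. Against monocytes alone, renal M1 was more than 4-fold lower for 20 of 70 barcodes in mouse 1 (28.6%), 2 of 52 in mouse 2 (3.85%) and 1 of 46 in mouse 3 (2.17%). The sum of 23 (13.7% of 168) was therefore 3 without mouse 1, whose monocyte library stood apart. At a fold of 2 the counts were 29 (41.4%), 10 (19.2%) and 12 (26.1%). Higher than in monocytes at either fold was 1 of 70 (1.43%), High-A. Against neutrophils, renal M1 was more than 4-fold lower for 1 of 146 barcodes (0.685%), which was Low-E in mouse 2 (1 of 50, 2%). Low-D was not in that count, since it was under 0.1% in both renal M1 and neutrophils. Renal M1 was more than 2-fold lower than neutrophils for 9 (17%), 8 (16%) and 12 (27.9%) in mice 1 to 3. It was more than 4-fold higher for 1 of 53 in mouse 1 (1.89%) and more than 2-fold higher for 2 of 53 (3.77%). Between the blood populations, monocytes were more than 4-fold above neutrophils for 7 of 69 barcodes in mouse 1 (10.1%) and for 0 of 55 and 0 of 47 in mice 2 and 3. At a fold of 2 the number in mouse 1 was 21 of 69 (30.4%).

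**Figure D2:**
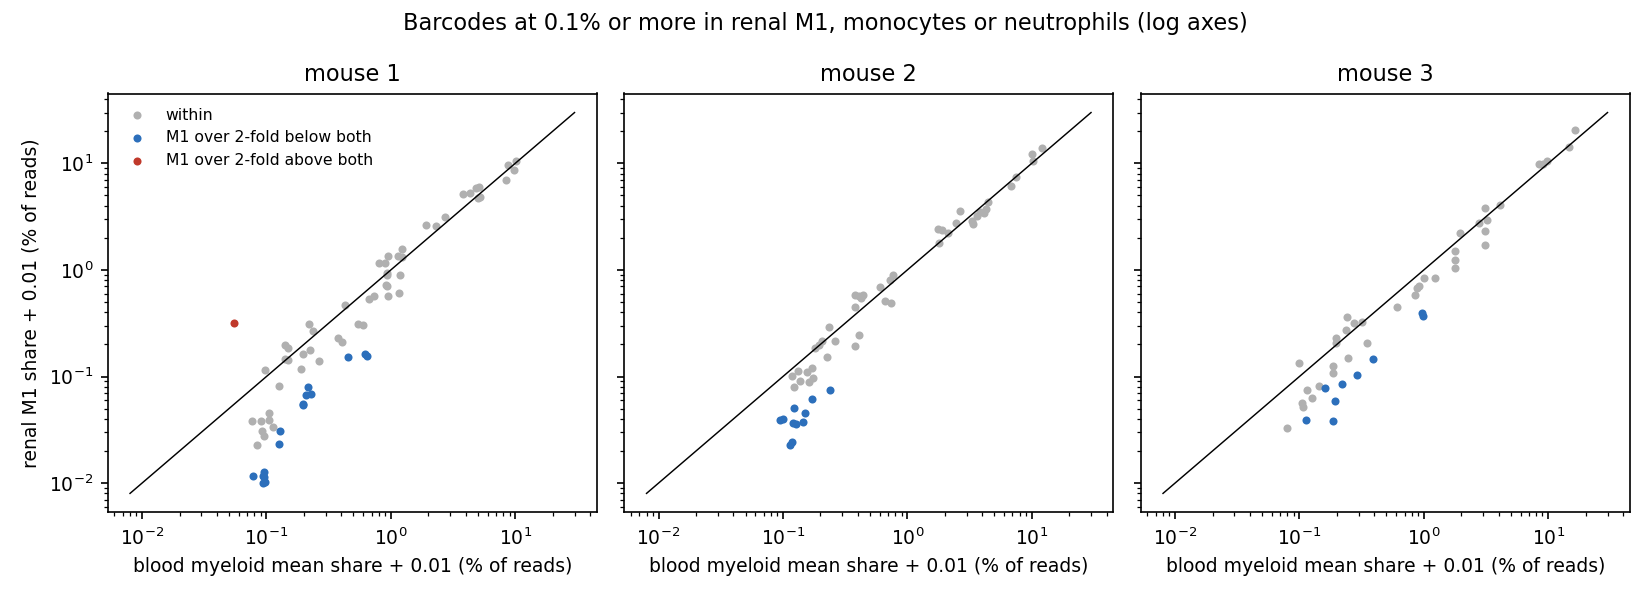
Renal M1 share (vertical) against the mean share of monocytes and neutrophils (horizontal), in percent of reads with 0.01 added, on log axes, for each barcode at 0.1% or more in 1 of the 3 populations of a mouse. The line marks equal shares; barcodes above 1% lie along it, and the 36 barcodes more than 2-fold below both blood populations (blue) lie below 1% of blood reads, against 1 above both (red) in mouse 1.

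High-A had 0.307% of renal M1 reads in mouse 1 (35734 reads), against 0.0559% in monocytes and 0.0339% in neutrophils, a log2 ratio to blood myeloid of 2.53. It was low elsewhere in that animal, with 0.00788% in renal M2, 0.00195% in B cells and 9.22e-05% in T cells, and reached 0.000153% at most in another mouse. High-A was thus the one barcode of the 172 that was more than 2-fold above both blood populations in renal M1, and renal M2 cells of the same mouse held a lower share.

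The lowest clones of mouse 1 were almost absent from renal M1. Low-A had 0.000249% of renal M1 reads (29 reads), against 0.161% in monocytes and 0.0144% in neutrophils, with 0.214% in B cells and 0.187% in T cells. Low-B had 0.000112% in renal M1 (13 reads), against 0.151% in monocytes and 0.0175% in neutrophils, and little in lymphocytes (0.00588% in B cells and 0.00176% in T cells). Low-B also reached 0.313% in a population of another mouse. Low-C had 0.00149% in renal M1 (173 reads), against 0.147% in monocytes and 0.0230% in neutrophils. It was larger in B cells, at 1.28%, and in T cells, at 0.935%, and renal M2 cells of the same animal held 0.576%. The log2 ratios of these 3 barcodes were -3.25, -3.22 and -3.05, and in each the monocyte share was several times the neutrophil share.

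In mice 2 and 3 the low clones had blood shares within 2-fold of each other. Low-D had 0.0127% of renal M1 reads in mouse 2, against 0.128% in monocytes and 0.0818% in neutrophils, with 0.709% in T cells. Low-E had 0.0144% in renal M1, against 0.0827% in monocytes and 0.134% in neutrophils, with 0.00395% in B cells and up to 0.492% in another mouse. Low-F had 0.0272% in renal M1, against 0.136% in monocytes and 0.136% in neutrophils, and reached 1.90% in another mouse. Whether such a barcode marks 1 clone in several animals, or reads that crossed between libraries, was not tested. Its lymphocyte shares were 0.00809% in B cells and 0.00373% in T cells, so neither Low-E nor Low-F was large in the lymphocytes of mouse 2.

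Low-G joined a small myeloid share to a large T cell share. It had 0.0283% of renal M1 reads in mouse 3, against 0.223% in monocytes and 0.132% in neutrophils, and 9.51% of T cell reads. Low-H did so for B cells, with 0.0491% in renal M1, 0.213% in monocytes, 0.157% in neutrophils and 3.02% in B cells. Low-I had 0.0288% in renal M1, against 0.0746% in monocytes and 0.130% in neutrophils, and had little in B cells (0.000254%) and T cells (3.16e-05%).

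Of the 36 barcodes below both blood populations, 27 (75%) had a B or T cell share above their share in each of the 3 myeloid populations. Among all 172 barcodes compared, 62 (36.0%) did. The numbers by mouse were 13 of 16, 7 of 11 and 7 of 9. Another 6 of the 36 were under 0.01% in both lymphoid populations. The barcodes below both summed to 0.759%, 0.356% and 1.23% of renal M1 reads in mice 1 to 3, against 4.28%, 1.45% and 3.53% of monocyte reads and 2.53%, 1.34% and 3.29% of neutrophil reads. The same barcodes held 11.7%, 10.2% and 18.1% of B cell reads and 22.2%, 21.3% and 58.4% of T cell reads. Of the 16, 11 and 9 barcodes, 2, 0 and 2 had a partner within 1.5-fold of them in all 8 populations. The pair of mouse 3 held 15.3% and 14.8% of its T cell reads. Whether such a pair marks 1 founder was not tested, so these are counts of barcodes and may exceed those of clones. Of the 23 barcodes more than 4-fold below monocytes, 22 (95.7%) were larger in B or T cells than in any of the 3 populations. They were 19 of 20 in mouse 1, where 33 of all 70 barcodes were so, and 3 of 3 in the other mice. These sets were chosen by their renal M1 ratio, and the shares are a description with no test.

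Over all barcodes of a class, the departure grew with falling abundance. Barcodes at a mean of 1% or more over the 3 populations (18, 18 and 16 in mice 1 to 3) had a median log2 ratio of renal M1 to blood myeloid of 0.19, -0.01 and -0.02, with an SD over barcodes of 0.26, 0.24 and 0.38. Those at 0.1% to 1% (35, 28 and 25) had medians of -0.40, -0.26 and -0.55. Those at 0.01% to 0.1% (118, 75 and 56) had medians of -0.93, -1.23 and -0.95. The ratio of monocytes to neutrophils ran the other way in the smallest class, with medians of 0.85, 0.60 and 0.45, and was -0.15, -0.08 and -0.06 in the largest. At low abundance, monocytes were thus the highest and renal M1 the lowest of the 3 populations in each mouse, by these medians.

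In both classes under 1% the median was lower among lymphoid barcodes. At 0.1% to 1%, barcodes whose mean B and T cell share exceeded their mean myeloid share (12, 5 and 8) had medians of -1.22, -0.50 and -1.41, and renal M1 was below blood in 11, 4 and 8 of them. The remaining barcodes of that class (23, 23 and 17) had medians of -0.28, -0.22 and -0.37. At 0.01% to 0.1%, the lymphoid barcodes (96, 62 and 46) had medians of -1.02, -1.27 and -1.15, against 0.24, -0.53 and 0.00 for the rest (22, 13 and 10). Within either subset, the median was thus lower in the smallest class than at 0.1% to 1% in mouse 2 alone. The mix of the classes also differed. Lymphoid barcodes were 12 of 35, 5 of 28 and 8 of 25 at 0.1% to 1%. They were 96 of 118, 62 of 75 and 46 of 56 at 0.01% to 0.1%. Cells of 1 animal supply every barcode of a class, so barcodes are not replicates and no test was made over them.

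**Figure D3:**
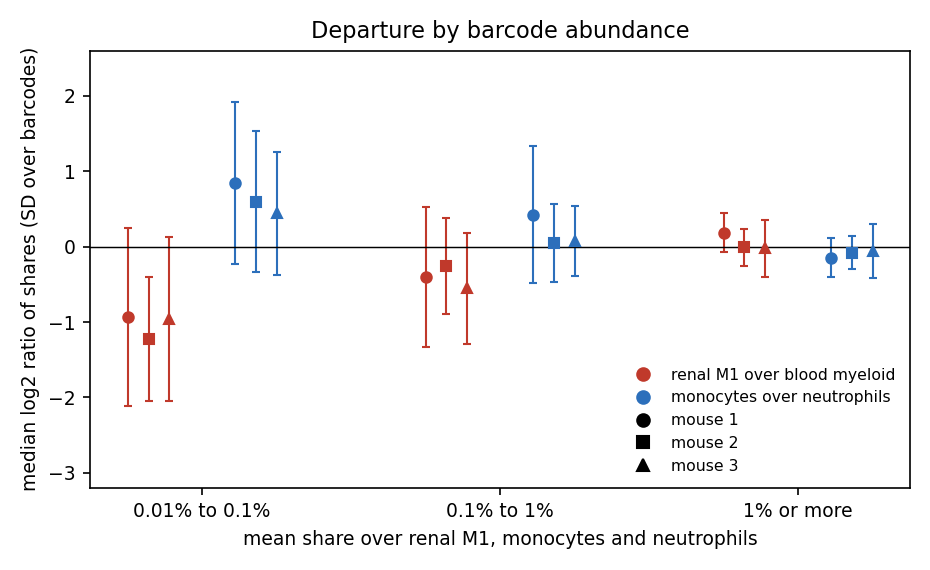
Median log2 ratio of shares (vertical) by the mean share of a barcode over the 3 populations (horizontal), for renal M1 over blood myeloid (red) and monocytes over neutrophils (blue), with a symbol for each mouse and bars of ± 1 SD over barcodes. The medians lie near 0 at 1% or more, and at 0.01% to 0.1% those of renal M1 lie between -1.23 and -0.93 while those of monocytes over neutrophils lie between 0.45 and 0.85.

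Although small clones had the widest ratios, large ones held much of the reads that kept the populations from full overlap. Barcodes at 1% or more held 46.4%, 57.9% and 53.8% of the reads not shared between renal M1 and monocytes in mice 1 to 3. They held 49.7%, 68.3% and 69.6% of those not shared between renal M1 and neutrophils. Between monocytes and neutrophils they held 46.7%, 60.1% and 70.1%, so this was not particular to renal M1. Large clones thus held the greater part of these reads in mice 2 and 3, and the smaller part in mouse 1.

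Lymphoid clones were followed in a list set by their B and T cell shares with a cap on the 3 myeloid shares, chosen after values were seen. A list of barcodes at 0.5% or more in B or T cells of a mouse and under 0.5% in each of the 3 populations held 63, 52 and 30 barcodes in mice 1 to 3. They summed to 1.39%, 0.867% and 0.957% of renal M1 reads, 4.90%, 3.14% and 3.03% of monocyte reads, and 2.55%, 1.96% and 2.24% of neutrophil reads. The order was renal M1, neutrophils and monocytes from low to high in each mouse, with monocytes 3.53, 3.62 and 3.17 times and neutrophils 1.84, 2.26 and 2.35 times the renal M1 sum. Barcode by barcode, renal M1 was below both blood populations for 107 of 145 and above both for 2, and monocytes were above both for 101. A low renal M1 share was common among small barcodes in general. Of all barcodes at 0.01% to 0.1%, 90 of 118, 67 of 75 and 40 of 56 were below the blood mean, a looser rule than below both. Among those whose lymphoid mean was not above the myeloid mean, 10 of 22, 8 of 13 and 5 of 10 were. The lists from the other mice gave background levels, since the barcodes of a mouse summed to at most 0.170%, 0.0437% and 0.0258% of renal M1 reads of the other animals. Renal M1 was therefore low and still above background for these clones. Barcodes larger in B cells (63) and those larger in T cells (82) had the same order, with renal M1 below both for 44 and 63 of them.

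Clones seen mainly in tissue macrophages were followed in the same way. A list of barcodes at 0.1% or more in renal M2 or cardiac macrophages, under 0.01% in B and T cells and under 0.1% in the 3 populations held 144, 96 and 121 barcodes. They summed to 0.744%, 0.111% and 0.305% of renal M1 reads, 0.111%, 0.104% and 0.0685% of monocyte reads, and 0.0212%, 0.0188% and 0.0217% of neutrophil reads. Renal M1 was thus the highest in mice 1 and 3 and close to monocytes in mouse 2, with neutrophils the lowest in each mouse. The barcodes of a mouse summed to 0.0251%, 0.0282% and 0.0169% at most in renal M1 of the other animals. Their sums in neutrophils of the other animals were at most 0.0169%, 0.0405% and 0.0185%. The neutrophil sums were thus of the order of the neutrophil background, and below it in mouse 2. In monocytes of the other animals they summed to at most 0.0236%, 0.0155% and 0.0638%, so the monocyte sum of mouse 3 was near its background. The same barcodes held 16.9%, 12.7% and 15.8% of renal M2 reads, and the renal M1 sum was 4.41%, 0.874% and 1.93% of that. Renal M1 was above both blood populations for 181 of 361 of these barcodes and below both for 99, of which 43 were in mouse 2. By the same rule monocytes were above both others for 86 and below both for 135, and neutrophils for 94 and 126. Mouse 2 went the other way, with neutrophils above both others for 44 of 96 barcodes, against 24 for renal M1 and 28 for monocytes. In renal M1, 34 of 144, 2 of 96 and 10 of 121 of them reached 0.01%. In monocytes 5, 5 and 2 did, and in neutrophils 0 in each mouse. Most of these orderings thus rank shares too small to count as present.

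Clones of the myeloid blood with little lymphoid output, few in number (5, 6 and 7), showed no such order. They summed to 0.930%, 0.411% and 1.90% of renal M1 reads, 0.875%, 0.801% and 1.75% of monocyte reads, and 0.609%, 0.908% and 2.08% of neutrophil reads. The list of mouse 1 included High-A, which entered through its renal M1 share alone. Without High-A the sums of mouse 1 were 0.623% of renal M1 reads, 0.819% of monocyte reads and 0.575% of neutrophil reads. Renal M1 then lay between the blood populations in mice 1 and 3 and below both in mouse 2. The list of mouse 2 included Low-E and Low-F and summed to more in another animal. It reached 1.22% of renal M1 reads, 1.64% of monocyte reads and 1.90% of neutrophil reads there, so its order rests in part on barcodes larger elsewhere. The lists of mice 1 and 3 reached at most 0.00271% and 0.00815% in these populations of other animals. The 3 lists were chosen after values were seen, and whether other cells were present in a sorted sample was not tested.

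**Figure D4:**
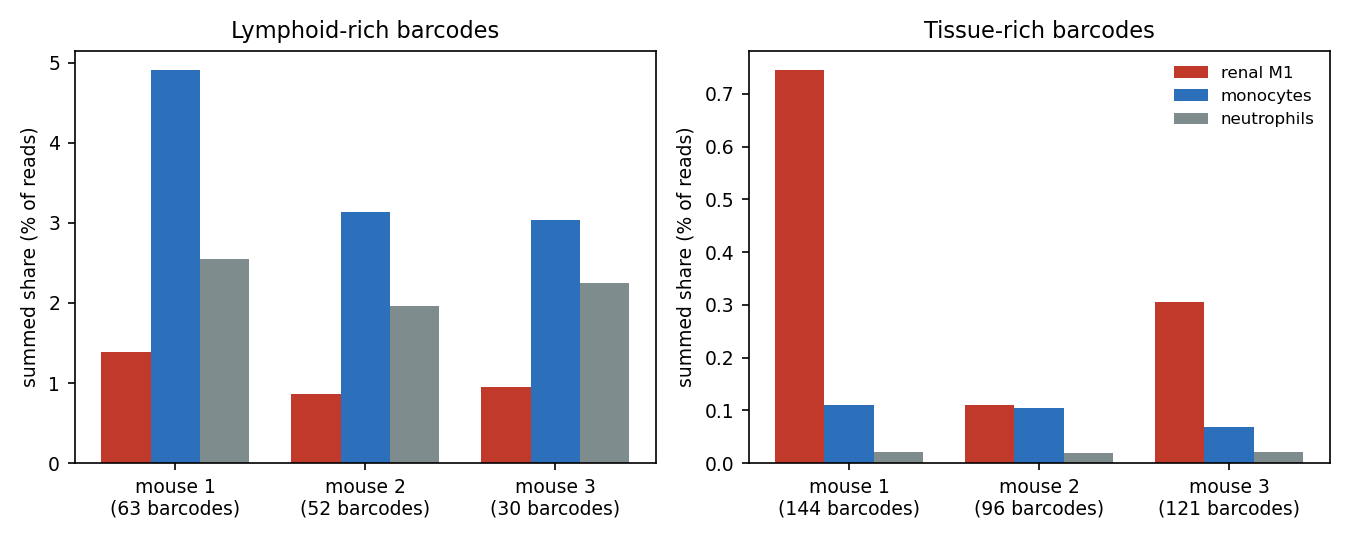
Summed share in percent of reads of lymphoid-rich barcodes (left) and tissue-rich barcodes (right) in renal M1 (red), monocytes (blue) and neutrophils (grey) of each mouse; a bar is 1 library and the vertical scales differ. The lymphoid-rich sum is lowest in renal M1 and highest in monocytes of each mouse, and the tissue-rich sum of renal M1 is above both blood populations in mice 1 and 3 and close to monocytes in mouse 2.

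Barcodes present in a single one of the 3 populations differed in their presence in B and T cells. Present at 0.01% or more in renal M1 and under 0.01% in both blood populations were 110, 8 and 45 barcodes in mice 1 to 3. Monocytes had 78, 36 and 42 of their own by this rule and neutrophils 19, 20 and 17. The renal M1 barcodes were small, the largest having 0.0549%, 0.0356% and 0.0307%, and together took 1.67%, 0.138% and 0.647% of its reads. Most such barcodes of each population reached 0.01% in a tissue macrophage population of that mouse. These were 150 of 163 (92.0%) for renal M1, 146 of 156 (93.6%) for monocytes and 46 of 56 (82.1%) for neutrophils, so this was not particular to renal M1. The difference lay in the lymphoid cells. Of the 163 barcodes of renal M1, 105 (64.4%) reached 0.01% in a tissue macrophage population and in neither B nor T cells of that mouse. This held for 30 of 156 (19.2%) in monocytes and 3 of 56 (5.36%) in neutrophils. Conversely, 45 of 163 (27.6%) reached 0.01% in B or T cells, against 118 of 156 (75.6%) in monocytes and 48 of 56 (85.7%) in neutrophils. Mouse 2 gave 8 of the 163, so the renal M1 values rest on mice 1 and 3. All reads of barcodes under 0.01% in both blood populations, those too small to count as present included, came to 3.37%, 1.51% and 2.68% of renal M1. The same measure, under 0.01% in the other 2 populations, was 2.79%, 2.12% and 2.27% in monocytes and 1.75%, 1.75% and 1.64% in neutrophils, so renal M1 was the highest in mice 1 and 3 and the lowest in mouse 2.

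Single barcodes were also tested across the 3 mice on their counts. With edgeR's quasi-likelihood test, 0 of 3622 barcodes (0%) passed a Benjamini-Hochberg adjusted p of 0.05 for renal M1 against blood myeloid cells, monocytes or neutrophils. At an unadjusted edgeR p under 0.05 there were 87, 67 and 52 of 3622, below the share of 0.05 that uniform p-values would give. DESeq2 called 0 in each comparison, with 8, 10 and 8 at an unadjusted p under 0.05. It gave no adjusted p for 1816 of the 3622 barcodes. Of the 172 barcodes at 0.1% or more in 1 of the 3 populations of a mouse, 12 were higher in another mouse, so most were large in a single animal and the spread between mice was wide. In simulated counts that kept the level each barcode had in each mouse, the same test of renal M1 against blood myeloid recovered 0% of 200 planted 4-fold changes without the mouse as a block and 89% with it, over 4162 barcodes. The dispersion of these counts was set to 0.05 and not taken from the data. Neither percentage therefore gives the sensitivity of the test in the data themselves.

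With the mouse as a replicate block, 3 barcodes passed for renal M1 against blood myeloid (0.0828%), 2 against monocytes (0.0552%) and 9 against neutrophils (0.248%). Renal M1 was higher for 2 of the 3, 2 of the 2 and 8 of the 9. One of the 3 was Low-F, which was present in mice 2 and 3, with a log2 fold change of -0.98 and an edgeR adjusted p of 0.0187. Low-F had 1.22% of renal M1 reads in mouse 3, against 1.63% in monocytes and 1.90% in neutrophils, so it was below both blood populations there too. That crossing of reads was not tested holds for this call too. In mouse 1 Low-F was a trace in each population, at 0.000971% in renal M1, 0.00109% in monocytes and 0.00129% in neutrophils. The other two, Block-A and Block-B, were higher in renal M1 through low shares outside the mouse of the clone. Block-B had 0.0191% in renal M1 of mouse 3, against 0.000692% in monocytes and 0.000334% in neutrophils, and 0.566%, 0.360% and 0.492% in the same order of populations in mouse 2. Block-A had 0.0124% in renal M1 of mouse 3, against 0.00284% in monocytes and 0.00293% in neutrophils. In mouse 1, its main carrier, it had 4.76%, 4.19% and 5.88% in that order. With the block and barcodes at 0.01% or more in 1 of the 9 samples (702), an alternative chosen with the values known, 0 passed in each comparison. At an unadjusted p under 0.05 by edgeR there were 24, 17 and 19 of 702, again below a share of 0.05. The smallest adjusted p-values of that edgeR fit were 0.853, 0.796 and 0.965.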

How the data were processed

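Barcode DNA was amplified and sequenced from 24 sorted samples, of which 9 were compared here. The authors deposited, per sample, a list of barcode sequences with whole-number read counts. The trimming, filtering and assignment of reads are not described in the sources used here. Each count was divided by the total of its file (Python 3.11.15, numpy 2.4.6, scipy 1.17.1). The titles name the mouse, so equal numbers pair samples: overlap averaged 0.897 over 9 pairs of equal number and 0.0105 over 18 pairs of different number. No pair of the 9 samples agreed within sampling noise, so each counted once. Replicates are mice, 3 per population.

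Blood myeloid is the mean of the monocyte and neutrophil shares. For the effective number and the number of barcodes it is the geometric mean of the monocyte and neutrophil values. Permutation tests were exact and two-sided, over 9 samples or within mice, with Benjamini-Hochberg adjustment over 10 tests. Single barcodes were tested with edgeR 4.0.16 (TMM, quasi-likelihood) and DESeq2 1.42.0 in R 4.3.3, checked on simulated counts. Named barcodes were, per mouse, the 5 with the highest renal M1 share, up to 3 in each direction outside both blood shares by 2-fold with the largest ratio, and up to 2 against 1 blood population past 4-fold. Alternatives were another presence threshold, added share or fold, 1-mismatch merging, thinning to 6808221 reads, removal of barcodes 100 times as abundant in another mouse, Jaccard and Morisita-Horn indices, the replicate block and leaving out each mouse. The populations, lists and rules were chosen with earlier results of these data known.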

Additional observations from a re-analysis of the deposited data

How the results depend on the processing

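Over 20 results and 142 alternatives, 121 values kept their direction and call, 17 moved and 4 reversed. Reversed were the ratio of barcodes at 0.01% or more, from 0.943 to 1.09 with presence at 0.001% or without mouse 2, and the overlap with monocytes minus that with neutrophils, from 0.00713 to -0.00958 without mouse 3 and -0.0169 with the Jaccard index. None of these passed a test. With 0.001% added to shares in place of 0.01%, renal M1 was more than 4-fold below neutrophils for 6 of 146 barcodes and below both blood populations for 11 of 172. With 0.5% or more required in a compared population, 1 barcode was below monocytes and 0 below neutrophils, below both, above monocytes, above neutrophils or above both. With a fold of 2, chosen after seeing the data, 51 of 168 were below monocytes, 29 of 146 below neutrophils, 36 of 172 below both and 2 of 146 above neutrophils, since each count takes the barcodes at 0.1% or more in the populations it compares. The mean share of renal M1 reads in barcodes under the threshold in both blood populations was 2.52% at 0.01% and 3.63% at 0.1%. With the replicate block, edgeR called 3, 2 and 9 barcodes against blood myeloid, monocytes and neutrophils, against 0 without it, and the block changed no other call.

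Leaving out each mouse gave 0.845 to 0.879 for the effective-number ratio, 0.837 to 1.09 for the ratio of barcodes, and 2.07 to 4.07 points for the 10 most abundant. The excess overlap of the blood pair was 0.0144 to 0.0161, and the overlap with monocytes minus neutrophils -0.00958 to 0.0265. Overlap differences were -0.0215 to -0.0205 with renal M2, -0.0239 to -0.0214 with Ccr2hi, -0.0212 to -0.0192 with Ccr2lo, -0.0247 to -0.0205 with B cells and -0.0260 to -0.0192 with T cells. Barcodes more than 4-fold below monocytes were 3 to 22, with 3 without mouse 1, and edgeR called 0 in each case. With 3 mice the exact within-mouse p could not go below 0.0370, and with 2 mice not below 0.111. The number of sorted cells limits shares near 0.01% in a way that read depth does not show, and it was not tested. The causes of these shifts were not tested.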
